A study of Caenorhabditis elegans with 2 samples.

Results

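The mir-51 family of Caenorhabditis elegans comprises the 6 microRNA genes cel-mir-51, cel-mir-52, cel-mir-53, cel-mir-54, cel-mir-55 and cel-mir-56. They were taken by name out of 261 annotated microRNA genes, and out of 46890 nuclear genes of all kinds. The family was selected on the peak signal measured near it in these same lists, so its signals, ranks and counts are given as a description and no test is attached to them. The data are chromatin immunoprecipitation followed by sequencing (ChIP-seq) of the homeodomain transcription factor PHA-2. The material was whole late embryos of both sexes, taken 3 h after synchronization by egg bleaching, of strain OP687, whose genotype is unc-119(tm4063) III; wgIs687. Every embryo therefore carried the unc-119 allele together with the wgIs687 transgene. The transgene encodes PHA-2 fused at its C terminus to GFP and FLAG, and an anti-GFP antibody was used for the precipitation. There was 1 group with 2 biological replicates, fragmented by sonication. No untagged strain, other stage or other factor was compared, and the control library was not analysed here. Signal from the small part of a whole embryo that is pharynx cannot be told apart from signal in other tissues.

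PHA-2 is a Hex-class homeodomain protein that is needed for the narrow isthmus of the pharynx, the feeding organ of the worm. MicroRNAs are short RNAs cut from hairpin precursors, and they repress messenger RNAs that pair with the bases near their 5′ end, the seed. The members of the mir-51 family act redundantly, and worms that lack all of them die as embryos with a pharynx that is not attached to the mouth. The cadherin gene cdh-3 has been reported as a target of the family in that process.

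The mature RNAs are shown because the shared seed is what makes these genes a family. They were read from the WBcel235 genome sequence at the annotated arm coordinates, and capitals mark the seed, bases 2 to 8 from the 5′ end.
cel-mir-51: uACCCGUAgcuccuauccauguu
cel-mir-52: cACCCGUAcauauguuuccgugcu
cel-mir-53: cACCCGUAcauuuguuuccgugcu
cel-mir-54: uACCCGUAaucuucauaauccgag
cel-mir-55: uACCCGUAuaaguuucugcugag
cel-mir-56: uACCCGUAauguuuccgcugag
All 6 members carried the seed ACCCGUA, and 0 of the other arms among the 459 annotated mature arms carried it. The seed lay on the 5p arm of the hairpin in the 3 members on chromosome IV and on the 3p arm in the 3 members on chromosome X. cel-mir-52 and cel-mir-53 were the most alike, identical at 23 of 24 bases and differing by A12U, counted from the 5′ end with the cel-mir-52 base first. cel-mir-51 and cel-mir-55 were the least alike, with 47.8% of bases identical over the longer RNA.

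The genes form 3 separate loci in WBcel235 (ce11) coordinates. cel-mir-51 (WBGene00003279, IV 11026013 to 11026112, minus strand) and cel-mir-53 (WBGene00003281, IV 11027593 to 11027691, minus strand) lie 1481 bp apart between the protein-coding genes alh-3 and hrg-5. cel-mir-52 (WBGene00003280, IV 14034008 to 14034107, plus strand) lies alone, 3006317 bp from cel-mir-53. On chromosome X, cel-mir-54 (WBGene00003282, 13144996 to 13145094), cel-mir-55 (WBGene00003283, 13144827 to 13144924) and cel-mir-56 (WBGene00003284, 13144691 to 13144787) lie on the minus strand within 404 bp. The X cluster sits in an intron of the protein-coding gene F09A5.3, which runs on the opposite strand. No tRNA, snoRNA or snRNA gene was annotated within 2 kb of any member.

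The peaks were read from 4 lists, 1 for each replicate, 1 for the pooled replicates and an optimal list that holds the strongest pooled peaks. The replicate lists hold 23371 and 24336 peaks for replicates 1 and 2, the pooled list 30000 and the optimal list 878. The optimal list is labelled as thresholded by the irreproducible discovery rate (IDR), which scores agreement between replicates. The pooled list is labelled as peaks and background and as input for that step, so its entries include background. Every entry of a list is called a peak here. The signal of a peak is the authors' own value, used here to describe and order peaks within a list. Its median was 29.1 (replicate 1), 29.0 (replicate 2), 46.8 (pooled list) and 159.268 (optimal list). All 878 optimal peaks were the 878 pooled peaks of highest signal, with 120.235 as the lowest signal inside the list and 120.123 as the highest outside it. Where a signal is set against that of the other replicate, as a ratio or a distance, no rescaling between the lists was applied. The lists give no read numbers, so the depth behind each signal is unknown.

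A summit of the optimal list lay within 2 kb of 3 of the 6 family genes, cel-mir-51, cel-mir-52 and cel-mir-53. The same held for 27 of 255 other microRNA genes (10.6%), for 2460 of 46884 other nuclear genes (5.25%) and for 2214 of 31521 other nuclear genes when piRNA genes were set aside (7.02%). The rule of the family used these lists, so nothing is read from the difference between the counts. The 3 members shared 2 summits, since the summit counted for cel-mir-53 was that of cel-mir-51, 1399 bp away from cel-mir-53. Within 1 kb only cel-mir-51 and cel-mir-52 had an optimal summit. The 878 strongest peaks of a single replicate list are not the optimal list. Among those of replicate 2, all 6 members had a summit within 2 kb, the members on chromosome X through a summit that they share. Among those of replicate 1, 3 of 6 did. With the replicate 2 peaks the share was 7.84% of other microRNA genes and 5.02% of other nuclear genes. With the replicate 1 peaks these shares were 11.4% and 5.14%. Nothing is read from these differences either.

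cel-mir-52 had the highest signal of the family in the pooled list and in replicate 1. Its strongest summit was at IV 14034011, 3 bp downstream of the annotated 5′ end of the hairpin, in a peak from 14033819 to 14034279. Its signal in the pooled list was 689.627, and the replicates had 359.623 (replicate 1) and 338.119 (replicate 2). The signal was 12.4 times the list median in replicate 1 and 11.7 times in replicate 2. In the pooled list, which includes background, it was 14.7 times the median. Against the median of the optimal list it was 4.33 times. Among nuclear peaks this was the 8th strongest of 29976 in the pooled list and the strongest on chromosome IV. The summit was at position -17 relative to the 5′ end in replicate 1 and at 48 in replicate 2, where negative values lie upstream. The 65 bp between the replicate summits compare with a median of 27 bp and a range from the 10th to the 90th percentile of 2 to 93 bp over 845 nuclear optimal peaks, each paired with its nearest summit in either replicate list.

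The cel-mir-52 locus carried further summits. A second optimal summit lay at IV 14034214, 206 bp downstream of the 5′ end and past the end of the hairpin. It had a pooled signal of 200.294, and 113.392 (replicate 1) and 69.703 (replicate 2) at the nearest replicate summits. Its interval, 14033819 to 14034304, starts at the same base as that of the strongest summit and contains it, so the 2 are not separate peak regions. A weaker summit, at IV 14032851 and 1157 bp upstream, had 117.387 in the pooled list, just below the lowest optimal signal, with 61.6 (replicate 1) and 55.2 (replicate 2). The 15 other genes annotated within 2 kb were 7 ncRNA genes and 8 piRNA genes, and none coded for protein. The strongest pooled summit fell in the exon of cel-mir-52 and also in that of WBGene00199919, an ncRNA gene on the opposite strand. Peaks have no strand, so the genes cannot be told apart as the one nearest to the signal. WBGene00195705, an ncRNA gene on the same strand, ended 4 bp before cel-mir-52 began. In replicate 1 the strongest summit fell in WBGene00195705 and in WBGene00199919, and outside cel-mir-52.

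cel-mir-51 was close behind. Its strongest summit, at IV 11026194 in a peak from 11025980 to 11026348, had a pooled signal of 639.866, with 298.823 (replicate 1) and 342.694 (replicate 2). It was the 11th strongest nuclear peak of the pooled list and next after that of cel-mir-52 on chromosome IV. In replicate 2 the order of these peaks turned round, and whether their levels differ was not tested. The log2 ratio of replicate 2 over replicate 1 was 0.20 at cel-mir-51 and -0.09 at cel-mir-52, against a median of -0.15 and a range from the 10th to the 90th percentile of -0.75 to 0.44 over the 845 nuclear optimal peaks. The authors' −log10 q was 2.07 for both peaks in the pooled list and did not separate them.

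The summit of cel-mir-51 lay upstream of the hairpin in every list, at position -82 (pooled), -62 (replicate 1) and -80 (replicate 2). That places it inside a different gene, F36H1.17, an ncRNA gene on the same strand at IV 11026131 to 11026219, 25 bp downstream of that gene's 5′ end. alh-3, which encodes a folate dehydrogenase, ends 143 bp from cel-mir-51 on the other side and is transcribed towards it. The nearest annotated tRNA, snoRNA or snRNA gene was the snoRNA gene M7.15, 56953 bp from the summit. Signal of cel-mir-51 and signal of F36H1.17 cannot be told apart at this spacing.

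cel-mir-53 had a weak summit of its own next to the strong neighbour. It lay at IV 11027828, 137 bp upstream of the hairpin in a region with no annotated gene, with a pooled signal of 91.4 and 45.5 (replicate 1) and 52.7 (replicate 2). It was the 1899th of 30000 pooled peaks, in the top 6.33% of that list, and it was not in the optimal list. Its −log10 q was 0.876 (pooled), 0.614 (replicate 1) and 0.884 (replicate 2), where the peak of cel-mir-51 had 2.07 in the pooled list. Its replicate summits were further apart than those of cel-mir-51, at positions -125 in replicate 1 and -236 in replicate 2. hrg-5, a heme transporter gene on the same strand, ends 598 bp upstream of cel-mir-53. cel-mir-53 resembled cel-mir-52 almost base for base in its mature RNA and not in the peak signal beside it.

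**Figure D1:**
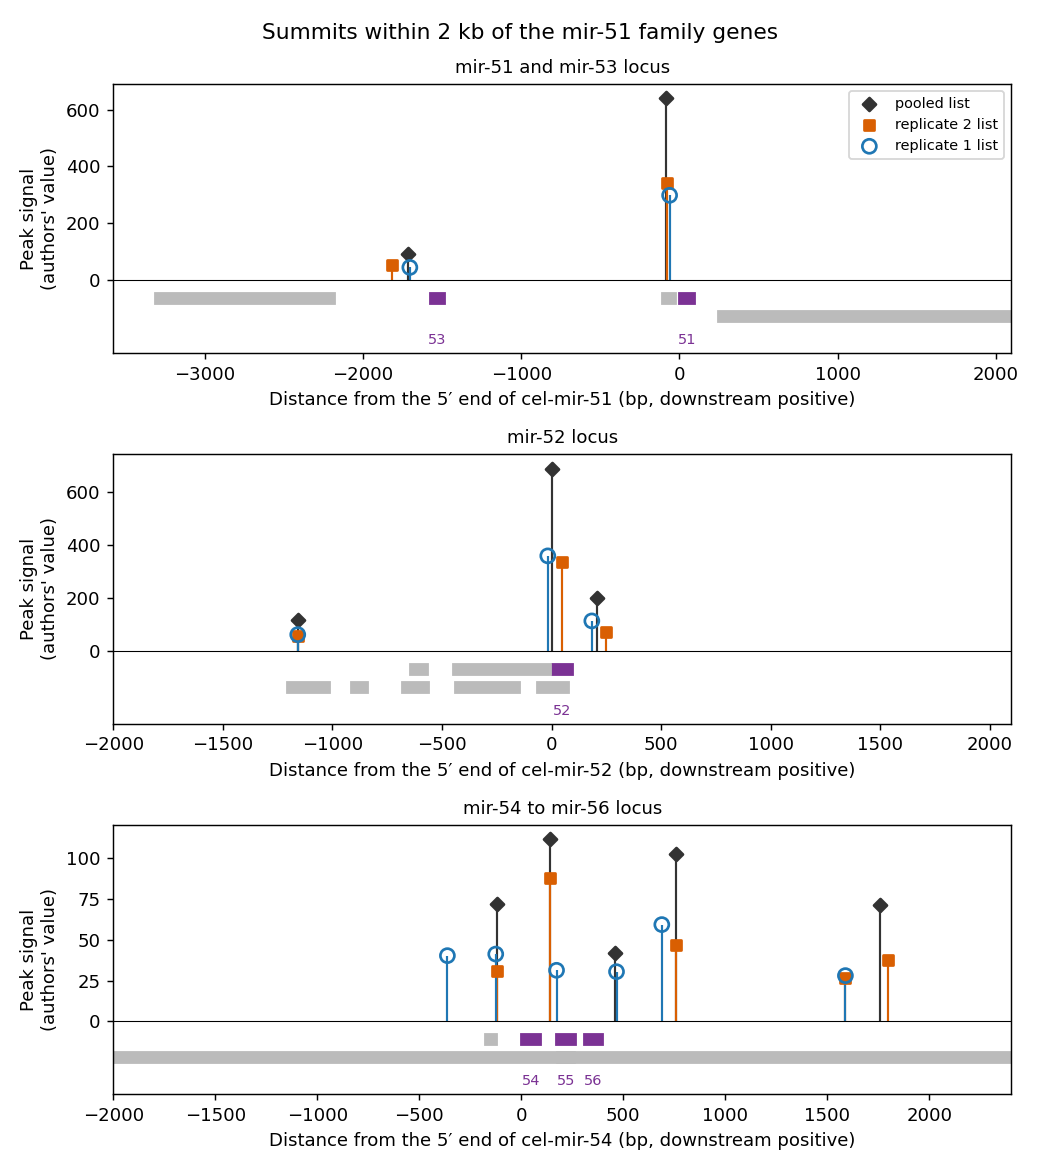
Summits within 2 kb of the family genes, by locus. The x axis is the distance in bp from the 5′ end of the first gene of each locus on its own strand and the y axis is the authors' peak signal. Purple boxes are family genes and grey boxes other genes, on the strand of the family in the upper row and on the opposite strand in the lower row (piRNA genes are not drawn). Tall summits stand at cel-mir-52 and just upstream of cel-mir-51, where the pooled signals are 689.627 and 639.866, and low scattered ones at the X cluster, where none exceeds 111.658.

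The 3 genes on chromosome X shared a set of weak summits that differed between the replicates. The strongest pooled summit, at X 13144952, had a signal of 111.658 and was the 1071st of 30000 peaks, in the top 3.57%. It lay between cel-mir-54 and cel-mir-55, 28 bp upstream of the 5′ end of cel-mir-55, 165 bp upstream of that of cel-mir-56 and 142 bp downstream of that of cel-mir-54. In replicate 2 the signal at the same base was 87.8, the 343rd of 24336 peaks. In replicate 1 the nearest summit, 31 bp away, had 31.3 and was the 9399th of 23371 peaks. The −log10 q was 1.41 for the pooled summit, 2.06 in replicate 2 and 0.141 at this replicate 1 summit. The replicate 2 value equals that of the strongest peaks of cel-mir-51 and cel-mir-52 in the same list. The strongest summit of replicate 1 was another, with 59.3 at a position 382 bp downstream of the 5′ end of cel-mir-56. The replicates thus placed their strongest summit at different positions, and the cluster was the part of the family least alike between them.

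The remaining summits of the X cluster were also below the optimal list. The next strongest pooled summit, at X 13144335, had 102.521, with 46.9 in replicate 2 at nearly the same base and the 59.3 of replicate 1 as its nearest counterpart. A summit in the ncRNA gene F09A5.11, 120 bp upstream of cel-mir-54, had a pooled signal of 72.1, with 41.2 (replicate 1) and 30.8 (replicate 2). The replicate 2 value was 1.06 times the median of that list. The −log10 q was 0.380 (pooled), 0.433 (replicate 1) and 0.118 (replicate 2). Each of the 3 genes had 5 pooled summits within 2 kb, 6 in replicate 1 and 5 in replicate 2, all shared among them. cel-mir-55b, a microRNA gene annotated on the opposite strand at cel-mir-55, shares these summits and was counted among the other microRNA genes.

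**Figure D2:**
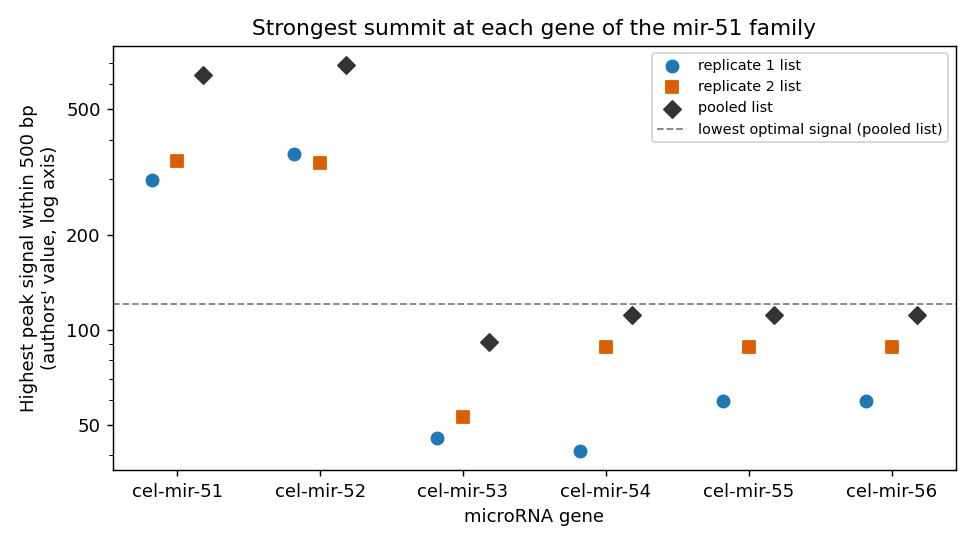
Highest peak signal within 500 bp of each family gene in the replicate 1, replicate 2 and pooled lists, on a log axis. The dashed line is the lowest optimal signal, 120.235, which applies to the pooled list only. cel-mir-51 and cel-mir-52 stand above it at 639.866 and 689.627. cel-mir-54, cel-mir-55 and cel-mir-56 share the pooled value of 111.658, and cel-mir-53 has 91.4.

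In order of pooled signal within 500 bp, cel-mir-52 came first, then cel-mir-51, then the X genes with their shared value, then cel-mir-53. The gap between cel-mir-51 and the X cluster held in both replicates, with 298.823 and 342.694 at cel-mir-51 against at most 59.3 and 87.8 at the cluster. The order of the X cluster and cel-mir-53 depended on the position read. In replicate 2 the X genes were higher, with 87.8 against 52.7 at cel-mir-53. In replicate 1 cel-mir-55 and cel-mir-56 had 59.3 within 500 bp and were higher than cel-mir-53 with 45.5, while cel-mir-54 had 41.2 and was lower, and so was the 31.3 nearest to the pooled summit.

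Among all microRNA genes, cel-mir-52 and cel-mir-51 had the strongest pooled signals within 2 kb, and cel-mir-53 came next through the summit it shares. The median highest pooled signal was 375.762 over the 6 family genes, of which the highest had 689.627. It was 63.2 over the 172 of 255 other microRNA genes with a pooled summit, of which the highest had 287.508, and 54.6 over 30302 of 46884 other nuclear genes. The family median stands on 3 loci, since the values are shared within them, and it rests on the summit that cel-mir-53 shares with cel-mir-51. Within 500 bp it was 111.658 over the 6 family genes, against 61.6 over the 95 of 255 other microRNA genes with a summit that close and 53.1 over 18552 other nuclear genes. Among the other microRNA genes, 0 had an optimal signal above 500.

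**Figure D3:**
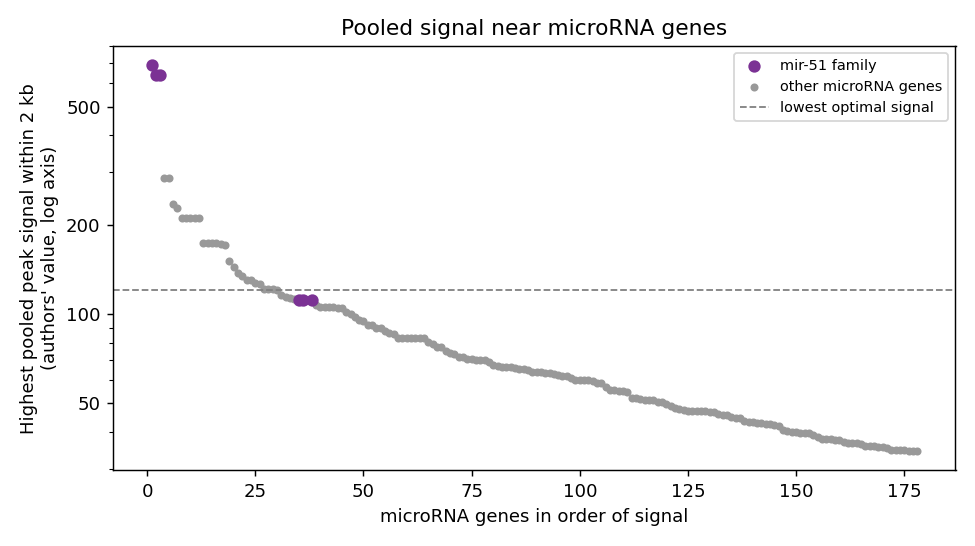
Highest pooled peak signal within 2 kb, on a log axis, for the microRNA genes with a pooled summit, in order of signal. Purple points are the mir-51 family and grey points the other microRNA genes, and the dashed line is the lowest optimal signal, 120.235. cel-mir-52, cel-mir-51 and cel-mir-53, which shares the summit of cel-mir-51, stand apart at the left, and the X cluster lies just under the line among other genes.

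The 5 other microRNA genes with the highest optimal signal were cel-mir-1819 and cel-mir-2212, which share a summit of 287.508, then cel-mir-237 with 235.4, cel-mir-354 with 227.9, and cel-mir-1018 with 209.874, the last tied with 4 genes at the same summit. The summit of cel-mir-1819 and cel-mir-2212 lay inside a tRNA gene, and those of cel-mir-237 and cel-mir-1018 lay 2 bp and 3 bp from one. Of the 2 strongest optimal summits at the family, 0 lay within 200 bp of a tRNA, snoRNA or snRNA gene, and the nearest such gene was 20135 bp from the summit of cel-mir-52. Of the 18 distinct summits of the other microRNA genes, 3 lay that close, and 8 of the 27 genes shared them. Over all nuclear optimal summits it was 220 of 856. Of the 27 genes, 1 had its strongest optimal summit within 100 bp of its own 5′ end, as cel-mir-51 and cel-mir-52 did. That gene was cel-mir-72, at 78 bp, and cel-mir-5549 came just past the limit at 101 bp. The 27 genes share 18 summits, and the same share over all nuclear genes is not given. In the pooled list further microRNA genes had their strongest summit that close, among them cel-mir-79 at position -20, cel-mir-236 at -63 and cel-mir-46 at -2. Nothing is therefore read from this count.

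The genes most like cel-mir-52 in signal were sought among the 129 other microRNA genes with a summit in both replicate lists. The measure was the Euclidean distance between log2 signals over these 2 lists. It reads the height of the signal only, not the position of the summit or the genes beside it. The nearest were cel-mir-1819 at 1.83, cel-mir-237 at 2.24, and cel-mir-1018, cel-mir-4921 and cel-mir-4923a at 2.41 each, which share a summit and tie with further genes at it. Between cel-mir-52 and cel-mir-51 itself the distance was 0.27.

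**Figure D4:**
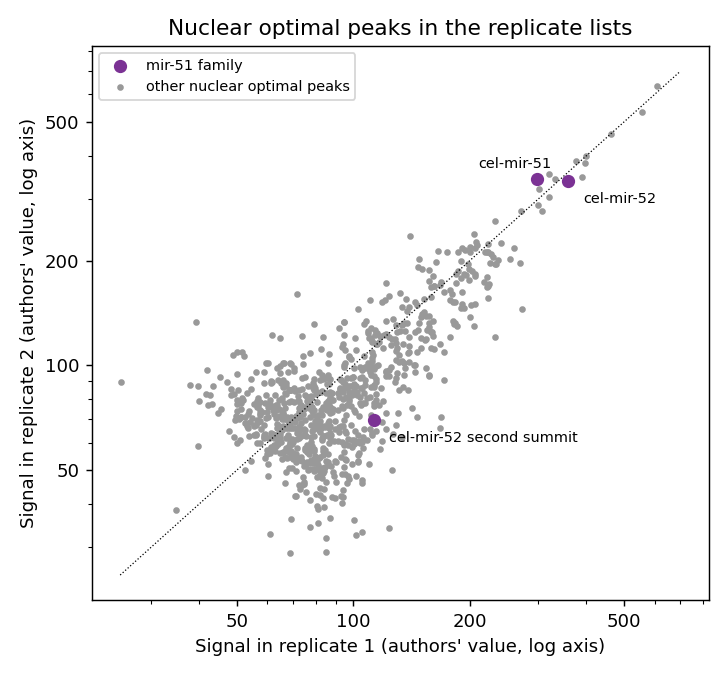
Signal in replicate 2 against signal in replicate 1, both on log axes, for the 845 nuclear optimal peaks paired with a nearest summit of their own in both replicate lists. Purple points are the peaks at cel-mir-51 and cel-mir-52, grey points the other nuclear optimal peaks, and the dotted line marks equal signal. The strongest peaks of both genes lie close to the line among the strongest of all, with 298.823 and 342.694 at cel-mir-51 and 359.623 and 338.119 at cel-mir-52 in replicates 1 and 2. The second summit of cel-mir-52 lies below the line, with 113.392 and 69.703.

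The bases under the strongest summits are shown because they lie where the signal was highest. Each run spans the pooled summit and 75 bp on either side, read from WBcel235 on the strand of the gene. Capitals mark bases of family hairpins in the cel-mir-52 and cel-mir-54 runs and motif matches, described after the sequences, in the cel-mir-51 and cel-mir-53 runs.
cel-mir-51 summit, IV:11026119-11026269, minus strand: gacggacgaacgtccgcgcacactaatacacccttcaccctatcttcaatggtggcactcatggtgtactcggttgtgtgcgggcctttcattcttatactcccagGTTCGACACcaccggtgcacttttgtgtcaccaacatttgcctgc
cel-mir-52 summit, IV:14033936-14034086, plus strand: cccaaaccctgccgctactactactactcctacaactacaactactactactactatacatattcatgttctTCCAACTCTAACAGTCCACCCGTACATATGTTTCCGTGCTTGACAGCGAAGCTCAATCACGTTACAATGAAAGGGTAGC
cel-mir-53 summit, IV:11027753-11027903, minus strand: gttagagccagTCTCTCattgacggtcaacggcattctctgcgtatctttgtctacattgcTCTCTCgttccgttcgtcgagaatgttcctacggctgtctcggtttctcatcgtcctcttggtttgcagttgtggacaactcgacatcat
cel-mir-54 and cel-mir-55 summit, X:13144877-13145027, minus strand: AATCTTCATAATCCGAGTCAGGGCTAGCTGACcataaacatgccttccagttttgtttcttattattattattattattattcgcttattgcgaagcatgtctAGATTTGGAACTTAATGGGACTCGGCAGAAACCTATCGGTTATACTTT
The run at cel-mir-52 holds 79 bases of its hairpin, with the mature RNA inside, and the run on chromosome X holds the facing ends of cel-mir-54 and cel-mir-55, 80 bases in all. The runs at cel-mir-51 and cel-mir-53 hold no hairpin base. The longest stretch in which every base repeats the base 3 positions before it was 16 bp in the cel-mir-52 run and 23 bp in the X run, against 7 bp at cel-mir-51 and 6 bp at cel-mir-53. A stretch as long as that of cel-mir-52 occurred in 1.40% of nuclear optimal windows, and as long as that of the X cluster in 0.117%. How such repeats bear on read placement was not tested.

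Matches to 7 short motifs were counted on both strands in wider windows that reach 150 bp to either side of the same summits. The homeodomain core TAATTA had no match in any of the 4 windows, and occurred in 10.3% of all nuclear optimal windows. Over the whole peak intervals it matched once, in the peak of cel-mir-53 at position -329, against 15.5% of nuclear optimal intervals. Its variant TAATTG had no match in windows or intervals, and occurred in 14.0% of the optimal windows. The same was true of TGTTTAC, a core bound by FoxA factors such as the pharynx regulator PHA-4, which 4.79% of the optimal windows held. AGATAA, the core bound by factors of the GATA family, was in none of the 4 windows and in 11.0% of the optimal ones. The E-box CACGTG was likewise in none of the 4 and in 4.44% of the optimal ones.

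GTTCGANNC, the inner part of the B box that recruits the RNA polymerase III machinery to tRNA genes, matched once at cel-mir-51. The match is the one in capitals in the printed run, on the strand of the gene and inside F36H1.17. This motif was in 16.1% of nuclear optimal windows and in 3.19% of all nuclear pooled windows. No other family window held it. GAGAGA matched 8 times at cel-mir-53, several of them overlapping in a run outside the printed bases, and once at cel-mir-52, also outside the printed bases. Over the whole peak interval it also matched once in the X peak. It was in 42.9% of nuclear optimal windows and 19.6% of pooled ones, and in the printed cel-mir-53 run it reads TCTCTC because it lies on the other strand. The share of G and C was 50.5% at cel-mir-51, 44.2% at cel-mir-52, 43.9% at cel-mir-53 and 39.2% at the X cluster, with a median of 43.2% over the optimal windows.

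Other microRNA families of the embryo and larva were read by the same distance. Of the 8 genes of the mir-35 family, which is needed in embryos, 0 had an optimal summit within 2 kb, and the highest pooled signal was 105.433 at cel-mir-42. The others of that family, cel-mir-35 to cel-mir-41, shared a summit of 82.8. In the mir-58 family 4 genes were matched and 1 had an optimal summit, cel-mir-58a with 137.458 at 1296 bp upstream. Of the 7 names listed for it, mir-1834 and mir-2209 matched no gene by that exact name, and mir-58 is the same gene as cel-mir-58a. cel-mir-58b and cel-mir-2209a to cel-mir-2209c, looked up after the values were seen, had no optimal summit. In the let-7 family, whose members time larval development, 1 of 4 had an optimal summit, let-7 itself with 127.52 at 1802 bp upstream. The annotated let-7 gene runs from X 14743590 to 14745321, far longer than the hairpins of the mir-51 family. Its distances refer to the ends of that longer annotation. The signals of cel-mir-58a and let-7 were below those of cel-mir-51 and cel-mir-52 and above the 111.658 of the X cluster and the 91.4 of the summit next to cel-mir-53, as was the 112.55 of cel-mir-81. As background, 10.6% of microRNA genes outside the mir-51 family had an optimal summit within 2 kb.

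Among 13 genes for microRNA processing and action, 4 had an optimal summit within 2 kb, where 7.02% of other nuclear genes without piRNA genes did. alg-5, an Argonaute gene, had 205.236 at 876 bp upstream, and vig-1, which encodes a component of the silencing complex, had 175.224 at 411 bp upstream. nhl-2, a cofactor of microRNA silencing, had 151.273, and xrn-2, the nuclease that degrades mature microRNAs, had 130.524. The median highest pooled signal of the 13 genes was 102.941, against 58.2 over the nuclear genes other than piRNA genes that had a pooled summit. The distance counts from the whole gene body, so long genes reach more summits. The background holds short non-coding genes as well, and a share over protein-coding genes alone is not given. Nothing is therefore read from these differences. cdh-3, the reported target of the family, had no pooled summit within 2 kb and a single summit of 27.9 in replicate 1, below the median of that list. The gene pha-2 itself had no summit within 2 kb in any list.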

How the data were processed

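The values are the authors' peak lists on ce11 for 2 biological replicates, for the pooled replicates and for the optimal set, and the ce10 lists were not used here. Each deposited list gives per peak a signal value, a −log10 q-value and a summit offset. The peak caller is not given in the sources used here, nor are its version and parameters. Labels name one possible control for both replicates, so the replicate signals share it. Peak signals are ordered within a list, replicate signals are compared without rescaling, and ranks are compared as a percent of the list.

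Genes were taken from the Ensembl release 115 annotation of WBcel235, the assembly also called ce11, and every peak lay within its chromosome lengths. Sequences were read from the RefSeq copy of WBcel235 with Biopython 1.88 under Python 3.11.15. let-7 was named through RefSeq at the same coordinates. A gene counts as near a summit within 2000 bp of its body. The named genes are the 6 members, their neighbours within 2000 bp, the 5 other microRNA genes of highest optimal signal, the 5 most like cel-mir-52, and the listed families and processing genes with an optimal summit, or the highest pooled signal where none had one. Further listed values and the 3 base repeats were added after the values were seen. Members, lists and motifs were chosen with earlier results of these data known. The summit reading was tested on simulated data. Whether the replicates came from separate cultures is not stated beyond their label as biological replicates. Alternatives were the distance, the peak interval, a promoter window, the length of the optimal list, each replicate alone, for motifs a narrower window and the whole peak interval, and, added after seeing the data, each summit given to its nearest microRNA gene only.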

Additional observations from a re-analysis of the deposited data

How the results depend on the processing

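The count of family genes with an optimal summit near was 3. Read from the 878 strongest peaks of a single replicate in place of the optimal list, it was 3 without replicate 2 and 6 without replicate 1. It was also 6 with the pooled list of double length, 1756 peaks, where the summits of the X cluster enter. It was 2 within 1000 bp, within 500 bp, in a promoter window (1000 bp before the 5′ end to 500 bp after it), and with each summit given to its nearest microRNA gene only, since the summit shared by cel-mir-53 then falls away. cel-mir-51 and cel-mir-52 were among the members counted under every one of these alternatives. For other microRNA genes the share was 10.6%. It was 5.88% within 1000 bp, 3.14% within 500 bp, 16.9% within 5000 bp and 4.31% in the promoter window. It was 5.88% with the upper 439 optimal peaks and 17.3% with the list of double length. Without replicate 1 it was 7.84%, and without replicate 2 it was 11.4%. For all other nuclear genes the share was 5.25%. It was 3.92% within 1000 bp, 3.14% within 500 bp, 9.001% within 5000 bp and 2.73% in the promoter window. With the upper 439 peaks it was 2.94%, and with the list of double length 9.23%. Without replicate 1 it was 5.02%, and without replicate 2 it was 5.14%. The number of motifs matched moved at cel-mir-52 from 1 to 0 in the narrower window, and over the whole peak interval at cel-mir-53 from 1 to 2 and at the X peak from 0 to 1. No paired analysis was possible because there was 1 group. The depth behind each peak is unknown, and with 2 replicates the spread of a signal rests on their difference alone.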
